A study of Homo sapiens with 4 samples.

Results

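The retinal pigment epithelium (RPE) identity genes examined here are 10 genes chosen to represent this tissue, not all of them particular to it: MITF, OTX2, PAX6, RLBP1, RPE65, BEST1, SERPINF1, PMEL, MERTK and EZR. They were taken by symbol, for what they are known to do in the RPE, with no threshold on their values. Earlier results of these data were known when these genes and the lists below were chosen. All 10 were found, by Ensembl identifier, among the 60725 genes of the deposited count table. RNA-seq was performed in an RPE1 line that carries the SunTag system, a human RPE line immortalized with telomerase (hTERT-RPE1). Control cells received 10 nM of a single negative control siRNA, which the sample titles call scramble (Silencer Select Negative Control No. 2). TOP2B knockdown cells received 10 nM of a Dharmacon siRNA pool against TOP2B, so that the groups differed in the siRNAs as well as in TOP2B. Cells of both groups were transfected again after 48 h and taken 72 h later, on day 5, with 2 biological replicates per group. The counts summed to between 20310259 and 23887013 per library, so that 1 CPM (the usual unit of counts relative to library size, here TMM-scaled) rested on 20.2 to 23.9 reads. TOP2B itself had 155 and 144 CPM in the control libraries and 15.3 and 13.3 CPM in the knockdown libraries.

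The RPE is a single layer of pigmented cells behind the retina. It regenerates the chromophore of the photoreceptors in the visual cycle, engulfs their shed outer segments, holds pigment in melanosomes, moves ions and water, and secretes factors towards the choroid and the retina. Its identity is set by MITF and OTX2, which act together on pigment and visual cycle genes, with PAX6 as a partner during eye development. RPE lines in culture are known to lose parts of this programme to different degrees.

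The 10 genes spanned the whole range from abundant to absent in this line, as the plot of CPM by library shows. RPE65 had 0 reads in each of the 4 libraries, and RLBP1 had 0 and 1 reads in the control and 0 and 1 reads in the knockdown libraries. These 2 genes were at or near zero, taken as at most 3 counts in every library. The limit that a count of 0 allows, 3 counts of a library, lay between 0.125 and 0.149 CPM. BEST1, PMEL and SERPINF1 were low, with 7 to 47 reads per library. OTX2, MERTK, MITF and PAX6 had between 252 and 1680 reads, and EZR between 13709 and 17026. These limits cover counting error only.

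**Figure D1:**
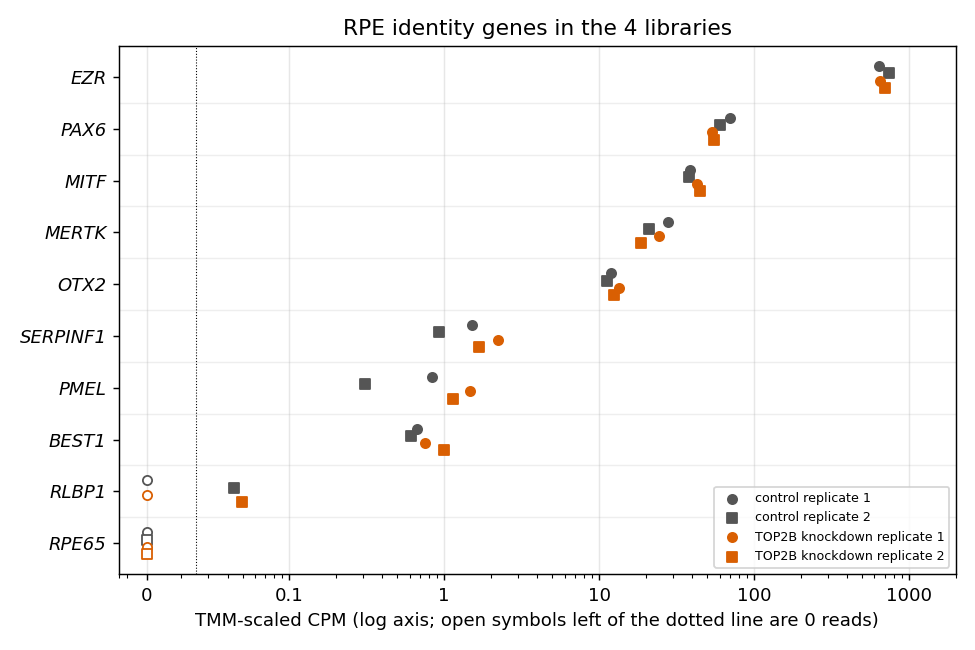
TMM-scaled CPM (log axis) of the 10 RPE identity genes in each control (grey) and TOP2B knockdown (orange) library, with circles for replicate 1, squares for replicate 2, and open symbols for 0 reads. EZR stands above all others at 638 to 747 CPM, PAX6, MITF, MERTK and OTX2 lie between 11.2 and 70.1 CPM, and RPE65 and RLBP1 are at or near 0.

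To compare levels between genes, CPM were divided by the exon length of each gene in kilobases (FPKM here). By this measure, EZR (mean over the 4 libraries 208 FPKM) was above 99.3% of 12542 tested protein-coding genes, and 37.4 times above the next gene in the order, MERTK (5.56 FPKM). MERTK and MITF (5.53 FPKM) could not be separated with this length, since their ranges over the libraries overlapped. OTX2 (3.61 FPKM) and PAX6 (2.90 FPKM) followed, again with overlapping ranges, and both were below MITF in all libraries. SERPINF1 (0.529 FPKM), PMEL (0.255 FPKM) and BEST1 (0.0872 FPKM) came next, each overlapping its neighbour, and ranked at the 12.1, 6.85 and 1.54 percentiles of the tested genes. The place of PAX6 depended on the length used. Its 81 annotated transcripts give a joint exon length of 20639 bases, and with the longest transcript (6944 bases) PAX6 had 8.62 FPKM, beside 8.55 FPKM for MITF. The place of MERTK changed too, since with its longest transcript it had 6.01 FPKM, below both.

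Next, TOP2B knockdown was compared with control. Of the 10 genes, 8 had at least 10 reads in at least 2 libraries and were tested, and 0 of these 8 passed an adjusted p below 0.05 by the quasi-likelihood test of edgeR, while 10.8% of all 15356 tested genes did. At an unadjusted p below 0.05, edgeR passed 1 of the 8 (PMEL), against 26.3% of all tested genes. The Wald test of DESeq2 called 0 of the 8 at an adjusted p below 0.05, against 11.8% of the 13275 genes with an adjusted p, and 0 at an unadjusted p below 0.05, against 10.7% of the 29440 genes with a p. It gave no adjusted p for BEST1 and PMEL. The fitted log2(fold change) of the 8 genes ran from -0.27 (PAX6) to 1.17 (PMEL) with a median of 0.18, beside a median of -0.0029 over all tested genes. The value was above 0 for 5 genes and below 0 for 3. For 6 of the 8 genes the control and knockdown values did not overlap, as was the case for 54.3% of the tested genes. A permutation of 2 against 2 libraries cannot give a p below 0.333, so that statements on single genes rest on the edgeR fit. In bulk RNA, fewer cells that express a gene and less RNA per cell cannot be told apart.

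**Figure D2:**
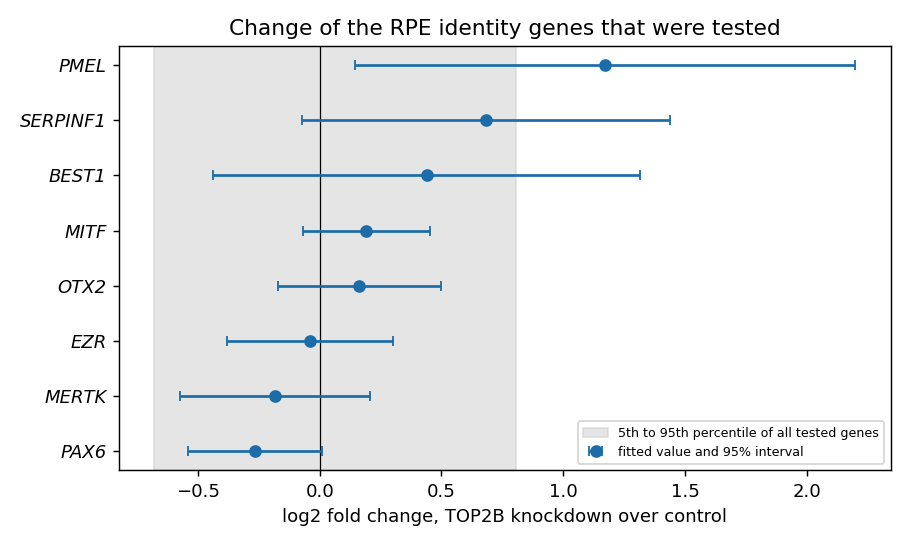
Fitted log2(fold change) of the 8 tested RPE identity genes, TOP2B knockdown over control, with its 95% interval, over the 5th to 95th percentile of all 15356 tested genes (grey band, -0.68 to 0.80). The intervals of 7 genes include 0, that of PMEL runs from 0.14 to 2.20, and PMEL alone has its value outside the band.

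The transcription factors at the top of the RPE programme were all transcribed. MITF (ENSG00000187098, GRCh38 chromosome 3 from 69739456 to 69968336 on the plus strand), the basic helix-loop-helix factor that specifies pigment cells, had 38.5 and 38.2 CPM in the control and 42.6 and 44.8 CPM in the knockdown libraries. The groups did not overlap, but the difference was small. The log2(fold change) was 0.19 (95% interval -0.07 to 0.45, adjusted p = 0.341, edgeR). The counts cover all 20 annotated transcripts of MITF together, so the pigment cell isoforms cannot be told apart. OTX2 (ENSG00000165588, chromosome 14 from 56799905 to 56816693 on the minus strand), the homeobox factor that maintains the RPE, had 11.9 and 11.2 CPM in the control and 13.4 and 12.5 CPM in the knockdown libraries. Its groups were apart by less than 1 CPM, with a log2(fold change) of 0.16 (interval -0.17 to 0.50, adjusted p = 0.54, edgeR). PAX6 (ENSG00000007372, chromosome 11 from 31784779 to 31817961 on the minus strand), the paired box factor of eye development, had 70.1 and 60.6 CPM in the control and 53.6 and 55.2 CPM in the knockdown libraries. Here the control libraries were the higher ones, with a log2(fold change) of -0.27 (interval -0.54 to 0.01, adjusted p = 0.206, edgeR). Of the exon bases of PAX6, 26.3% are shared with genes on the opposite strand, mostly ELP4. The methods describe single-end reads from a kit that does not mark the strand, whereas the column names of the count table carry a tag for stranded paired-end data. Whether reads from overlapping genes on the opposite strand entered a count or were left out is therefore not known, here and for the overlaps given for other genes.

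In a list of 20 factors of the eye field and the RPE, 15 genes were tested, 1 was called higher and 1 lower, beside 6.66% and 4.18% of all tested genes. The list median was -0.09. TFEC, a factor of the same family as MITF and known to be expressed in the RPE, rose from 2.99 ± 0.561 to 7.16 ± 0.32 CPM (SD, n = 2), a log2(fold change) of 1.26 ± 0.21 (SE, adjusted p = 0.00609, edgeR). TFEB, the family member that drives lysosomal genes, fell by 0.72 on the log2 scale (adjusted p = 0.0381, edgeR), a call that was lost without any one of the 4 libraries (adjusted p up to 0.138) and with DESeq2 (0.0855). TFE3, the fourth member of the family, had the highest level per length of the list (50.9 FPKM, adjusted p = 0.799, edgeR). CRX and RAX, which mark photoreceptors and the early eye field, had 0 reads in all libraries, and SIX6 had 1 read in 1 library. SOX9, a partner of MITF and OTX2 in the RPE, had 76.1 and 70.3 CPM in the control and 92.4 and 101 CPM in the knockdown libraries, with an adjusted p of 0.0595 (edgeR). It was named after its values were seen.

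Of the functions of the RPE, the visual cycle had both of its genes among the 10 at or near zero. RPE65 (ENSG00000116745, chromosome 1 from 68428822 to 68449954 on the minus strand) encodes the isomerohydrolase that makes 11-cis retinol, and RLBP1 (ENSG00000140522, chromosome 15 from 89209869 to 89221614 on the minus strand) the protein that carries 11-cis retinoids. Neither had enough reads for a test in either group. The stretch of 250 bases before the RefSeq start of both genes (GRCh38.p14) is shown beside that of EZR, the most abundant of the 10 genes, because these genes stand at the ends of the range of levels. Capitals mark matches, on either strand, to TAATCC, the core motif of OTX factors, and to CACGTG and CATGTG, the motifs of MITF. The sequences are given 5′ to 3′ on the strand of the gene.
RPE65, chr1:68449955-68450204, minus strand: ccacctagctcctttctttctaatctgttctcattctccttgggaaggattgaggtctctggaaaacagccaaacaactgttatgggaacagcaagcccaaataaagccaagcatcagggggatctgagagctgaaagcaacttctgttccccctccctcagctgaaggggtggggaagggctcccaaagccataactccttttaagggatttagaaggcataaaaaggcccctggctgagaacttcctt
RLBP1, chr15:89221580-89221829, minus strand: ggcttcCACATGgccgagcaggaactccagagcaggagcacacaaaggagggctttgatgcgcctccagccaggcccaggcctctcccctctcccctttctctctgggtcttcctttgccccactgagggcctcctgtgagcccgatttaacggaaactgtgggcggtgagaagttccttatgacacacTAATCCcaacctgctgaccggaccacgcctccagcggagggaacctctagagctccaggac
EZR, chr6:158818236-158818485, minus strand: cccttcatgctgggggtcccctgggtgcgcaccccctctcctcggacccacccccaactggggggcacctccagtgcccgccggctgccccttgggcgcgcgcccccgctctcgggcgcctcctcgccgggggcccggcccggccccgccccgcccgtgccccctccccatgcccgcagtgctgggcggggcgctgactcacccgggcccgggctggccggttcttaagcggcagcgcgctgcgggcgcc
The RLBP1 stretch held 1 TAATCC, at position -61 counted from the start, and 1 match to CATGTG, read as CACATG, at position -244. The RPE65 and EZR stretches held no match to the 3 motifs. Over 35116 RefSeq promoter stretches of the same length, 5.62% held TAATCC, 6.34% CACGTG and 9.42% CATGTG. Some stretches of PAX6 and OTX2, which were transcribed, also held CATGTG. The matches are matches of letters, and binding was not tested. The stretches differed in base composition. RPE65 had 0 CpG and RLBP1 8 CpG, while EZR had 28 CpG and MERTK 25 CpG, beside a median of 11 CpG over all stretches. The CpG number did not follow the level throughout. The stretches of OTX2, which was transcribed, had 7 and 4 CpG, those of MITF 4 to 20 CpG and those of PAX6 3 to 28 CpG. Of the 10 genes, 7 had a promoter in the table, and BEST1, SERPINF1 and PMEL had no entry.

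Of 16 genes for the visual cycle and retinoid handling, 6 were tested, and 8 had at most 3 counts in every library. Besides RPE65, the genes at 0 in all libraries were RBP3, RBP4, RGR, STRA6 and TTR, which bind, carry or isomerize retinoids. LRAT, which makes the retinyl esters that RPE65 uses, had 2 and 0 reads in the control and 5 and 1 reads in the knockdown libraries. The highest level of the list was that of RDH11 (19.2 FPKM), a retinol dehydrogenase found in many tissues. Of the 6, DHRS3 was called, beside 10.8% of all tested genes. It reduces retinaldehyde to retinol in many cell types. It rose by 0.61 on the log2 scale (standard error 0.16, adjusted p = 0.0416, edgeR), but the call was lost without either replicate 2 (adjusted p = 0.187 for the control and 0.17 for the TOP2B knockdown library). The list median was 0.04.

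PMEL (ENSG00000185664, chromosome 12 from 55954105 to 55973317 on the minus strand) forms the fibrils on which melanin is laid down in melanosomes. It had 20 and 7 reads in the control and 31 and 23 reads in the knockdown libraries, or 0.835 and 0.307 CPM against 1.46 and 1.14 CPM. The control replicates differed more from each other than control replicate 1 did from either knockdown library on the log2 CPM scale. The log2(fold change) of 1.17 was the largest of the 10 genes but had a wide interval (0.14 to 2.20, adjusted p = 0.137, edgeR). Its size depended strongly on which control replicate was included. Without control replicate 1, the value was 2.06 and passed the threshold (adjusted p = 0.0135), and without control replicate 2 it was 0.65 (adjusted p = 0.563). It also passed when no filter was set on low counts (adjusted p = 0.0355). CDK2, which lies within the annotated span of PMEL on the opposite strand and shares 2.42% of the exon bases of PMEL, was called higher, with a log2(fold change) of 0.60 (adjusted p = 0.0137, edgeR; 0.0631 without control replicate 1). Its part in the PMEL counts was not tested.

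Of 22 genes of melanosomes and pigment synthesis, 14 were tested and 1 was called, beside 10.8% of all tested genes, with a median of 0.07. TYR and DCT, enzymes of melanin synthesis, and the melanosomal transporter OCA2 had 0 reads in all libraries. TYRP1, the third enzyme of the pathway, had 3 and 2 reads in the control and 7 and 7 reads in the knockdown libraries, too few for a test. GPNMB, a PMEL relative found in melanosomes and lysosomes, was the highest of the list (60.1 FPKM). RAB27A, the small GTPase that links melanosomes and other vesicles to their motors, rose from 17.6 ± 1.26 to 30.7 ± 4.16 CPM (SD, n = 2), a log2(fold change) of 0.80 ± 0.14 (SE, adjusted p = 0.00801, edgeR). It was called without any one of the 4 libraries as well.

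MERTK (ENSG00000153208, chromosome 2 from 111898607 to 112029561 on the plus strand) is the receptor tyrosine kinase through which the RPE takes up outer segments. It had 27.8 and 21.1 CPM in the control and 24.3 and 18.8 CPM in the knockdown libraries. Replicate 1 was above replicate 2 in both groups, by 0.40 and 0.37 in log2 CPM, and the groups overlapped. The log2(fold change) was -0.18 (interval -0.57 to 0.21, adjusted p = 0.555, edgeR), and it was 0.03 without control replicate 1. The other two receptors of its family, which share the ligand GAS6 with it, were called higher. AXL had 728 and 664 CPM in the control and 1575 and 1426 CPM in the knockdown libraries, a log2(fold change) of 1.11 ± 0.16 (SE, adjusted p = 0.00281, edgeR). TYRO3 had 23.7 and 19.3 CPM against 56.0 and 47.5 CPM, a log2(fold change) of 1.27 ± 0.15 (SE, adjusted p = 0.00124, edgeR). TYRO3 has a pseudogene copy, which makes the assignment of its reads less certain. Both calls held without any one library, as the plot of receptors and ligands shows.

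**Figure D3:**
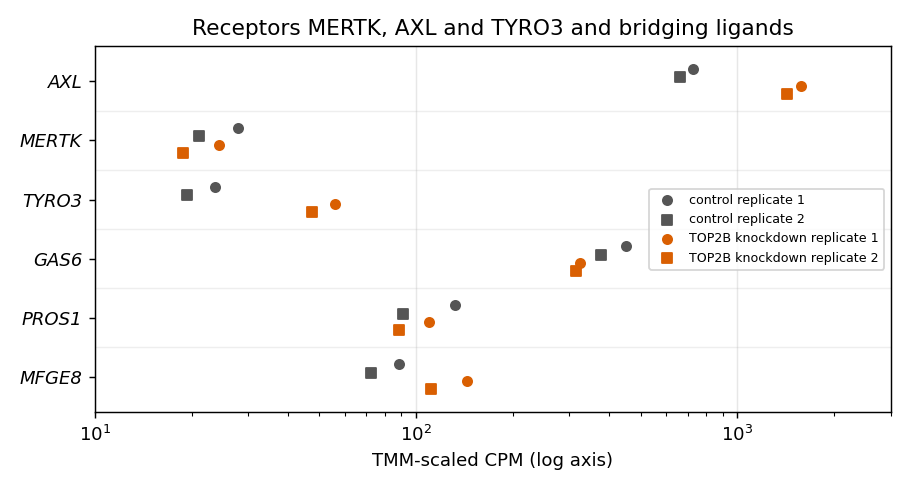
TMM-scaled CPM (log axis) of the receptors AXL, MERTK and TYRO3 and of the bridging ligands GAS6, PROS1 and MFGE8 in each control (grey) and TOP2B knockdown (orange) library, with circles for replicate 1 and squares for replicate 2. The knockdown libraries stand apart to the right for AXL, TYRO3 and MFGE8, and to the left for GAS6, while the groups overlap for MERTK and PROS1.

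The balance between the receptors was compared within each library. AXL had 26.2 and 31.5 times the CPM of MERTK in the control libraries and 64.9 and 75.9 times in the knockdown libraries. The CPM of TYRO3 was 0.851 and 0.915 times that of MERTK in the control and 2.31 and 2.53 times in the knockdown libraries. The log2 ratio to MERTK was thus higher in the knockdown by 1.29 for AXL and by 1.45 for TYRO3. These ratios were chosen after the values were seen. An exact permutation test over 2 against 2 libraries cannot separate groups (two-sided p = 0.333 for both ratios, the smallest it can give), so that these differences stand as values only. The intervals of the fold changes were -0.57 to 0.21 for MERTK and 0.76 to 1.46 for AXL.

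Of 22 genes for the uptake and breakdown of outer segments, 20 were tested, 3 were called higher and 2 lower, beside 6.66% and 4.18% of all tested genes. The median of the list was -0.12. MFGE8, a bridging protein that binds integrins, rose by 0.67 (standard error 0.16, adjusted p = 0.0242, edgeR), a call lost when control replicate 2 (0.0872) or TOP2B knockdown replicate 1 (0.105) was left out. TUB, of the family of tubby proteins that link cargo to MERTK, was low and fell by 1.69, from 39 and 31 reads to 10 and 9 reads (adjusted p = 0.0205, edgeR). RUBCN, a regulator of phagocytosis that uses autophagy proteins, fell by 0.64 (adjusted p = 0.0128, edgeR; 0.0937 without TOP2B knockdown replicate 2), with 54.9% of its exon bases shared with other genes. GAS6, the ligand of all the receptors in the family, had 450 and 377 CPM in the control and 324 and 315 CPM in the knockdown libraries (log2(fold change) -0.37, adjusted p = 0.131, edgeR). RUBCN and GAS6 were named after their values were seen.

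BEST1 (ENSG00000167995, chromosome 11 from 61950063 to 61965515 on the plus strand) is the calcium-activated chloride channel of the basolateral RPE membrane. It had 16 and 14 reads in the control and 16 and 20 reads in the knockdown libraries. Per CPM the groups did not overlap (0.668 and 0.614 against 0.755 and 0.992), but the log2(fold change) of 0.44 had an interval from -0.44 to 1.32 (adjusted p = 0.528, edgeR). Of its exon bases, 14.6% are shared with FTH1 on the opposite strand, a ferritin gene with 257 to 414 CPM, so that even this low count is uncertain. The interval includes both a fall and a rise, so that the direction of a change of BEST1 was not resolved. Of 20 genes for the transport of ions, water and metabolites, 14 were tested and 2 were called, both lower (4.18% of all tested genes were), with a list median of -0.23. SLC6A6, the taurine transporter, fell by 0.69 (standard error 0.18, adjusted p = 0.0349, edgeR), and ATP1B1, a subunit of the sodium pump that is apical in the RPE, fell by 0.66 (standard error 0.16, adjusted p = 0.0254, edgeR). Both calls were lost when control replicate 1 (adjusted p = 0.169 and 0.104) or TOP2B knockdown replicate 2 (0.0831 and 0.0903) was left out. The potassium channel KCNJ13, a marker of RPE microvilli, had 1 read in 1 library. BSG, the partner of the lactate transporters, had the highest level (134 FPKM).

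SERPINF1 (ENSG00000132386, chromosome 17 from 1762029 to 1777565 on the plus strand) encodes PEDF, the factor secreted by the RPE that restrains vessel growth. It had 36 and 21 reads in the control and 47 and 34 reads in the knockdown libraries, or 1.50 and 0.921 CPM against 2.22 and 1.69 CPM. The knockdown libraries were the higher ones, with a log2(fold change) of 0.68 (interval -0.07 to 1.44, adjusted p = 0.237, edgeR). Without one library this value ran from 0.38 to 1.08, the former without control replicate 2 and the latter without control replicate 1. Of 22 secreted factors and proteins of Bruch's membrane, the matrix below the RPE, 16 were tested, 3 were called higher and 3 lower, beside the shares of 6.66% and 4.18%, with a median of -0.04. Complement component C3 rose from 31 and 24 to 74 and 73 reads (log2(fold change) 1.59, standard error 0.27, adjusted p = 0.00615, edgeR), with 11.7% of its exon bases shared with another gene. VEGFA, the angiogenic factor whose action PEDF opposes, rose by 0.71 (adjusted p = 0.0182, edgeR; 0.154 without control replicate 2). LTBP2, a protein of microfibrils, rose by 0.59 (adjusted p = 0.0215, edgeR; 0.0967 without control replicate 2, 0.0874 when TOP2B knockdown replicate 2 was left out). The protease HTRA1 fell by 0.69 (adjusted p = 0.0438, edgeR; 0.193 without control replicate 1, 0.117 when TOP2B knockdown replicate 2 was left out). The remaining called genes, SPARC and the collagen COL8A1, fell by 0.58 and 0.54, and neither was called without any one of the libraries (adjusted p up to 0.357 and 0.296, edgeR). They were named after their values were seen. The highest level was that of SFRP1 (634 FPKM), a secreted Wnt inhibitor.

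EZR (ENSG00000092820, chromosome 6 from 158765741 to 158819368 on the minus strand) encodes ezrin, which ties the membrane of apical microvilli to actin. It had 638 and 747 CPM in the control and 647 and 701 CPM in the knockdown libraries, and the knockdown values lay between the control values. The log2(fold change) was -0.04 (interval -0.38 to 0.30, adjusted p = 0.901, edgeR), the smallest in size of the 8 tested genes, and it ran from -0.15 to 0.08 without one library. Its relatives MSN (moesin, 116 FPKM) and RDX (radixin, 20.9 FPKM) were below EZR per exon length, by which EZR was the highest of 22 genes of the ezrin complex and microvilli. With the longest transcript as the length, MSN (249 FPKM) was above EZR (223 FPKM). Of these genes, 18 were tested and 1 was called, where 10.8% of all tested genes were, with a median of -0.01. MYO1C, a membrane-bound myosin motor, rose from 141 ± 8.81 to 274 ± 20.3 CPM (SD, n = 2), a log2(fold change) of 0.96 ± 0.13 (SE, adjusted p = 0.00243, edgeR), and it was called without any one library as well. VIL1 and CLIC5, found in microvilli of other epithelia, had at most 2 reads in a library.

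The label of the line was also set against markers of other states and cell types, drawn in the plot of fold changes by list. Of 20 junction genes, 11 were tested and 1 was called, near the share of 10.8% over all tested genes. CDH1, CDH3, CLDN3, CLDN10, CLDN19, CRB2 and TJP3 had at most 3 counts in every library, among them CLDN19, the main claudin of the RPE, with 0 reads. MARVELD2, a protein of tricellular junctions, rose by 0.66 (adjusted p = 0.0387, edgeR), but the call held only without TOP2B knockdown replicate 2 among the fits without one library, with an adjusted p of 0.0509 without control replicate 1, 0.134 without control replicate 2 and 0.197 when TOP2B knockdown replicate 1 was left out. CTNNA1 was the highest of the list (67.4 FPKM). Of 11 simple epithelial genes, 4 were tested and 0 were called by edgeR, beside 10.8% of all tested genes. At an unadjusted p below 0.05, edgeR passed 3, beside 26.3% of all tested genes. DESeq2 called 0 at an adjusted p below 0.05, beside 11.8% of all genes with an adjusted p. KRT8 was abundant (159 FPKM), while EPCAM and GRHL2 had 0 reads. The summed level of the list was 1468 to 1787 CPM in the control and 1135 to 1424 CPM in the knockdown libraries. KRT8 (1102 and 1347 against 854 and 1074 CPM) and KRT18 (355 and 424 against 266 and 329 CPM) made up nearly all of this sum. Of the tested genes, KRT7 was higher in the knockdown, with a log2(fold change) of 0.65. The values of KRT8, KRT18 and ESRP2 were -0.35, -0.39 and -1.35. ESRP2 was low, with 34 and 21 reads in the control and 14 and 5 reads in the knockdown libraries (adjusted p = 0.112, edgeR). KRT18, KRT7 and ESRP2 were named after their values were seen. A change of epithelial state was not tested.

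**Figure D4:**
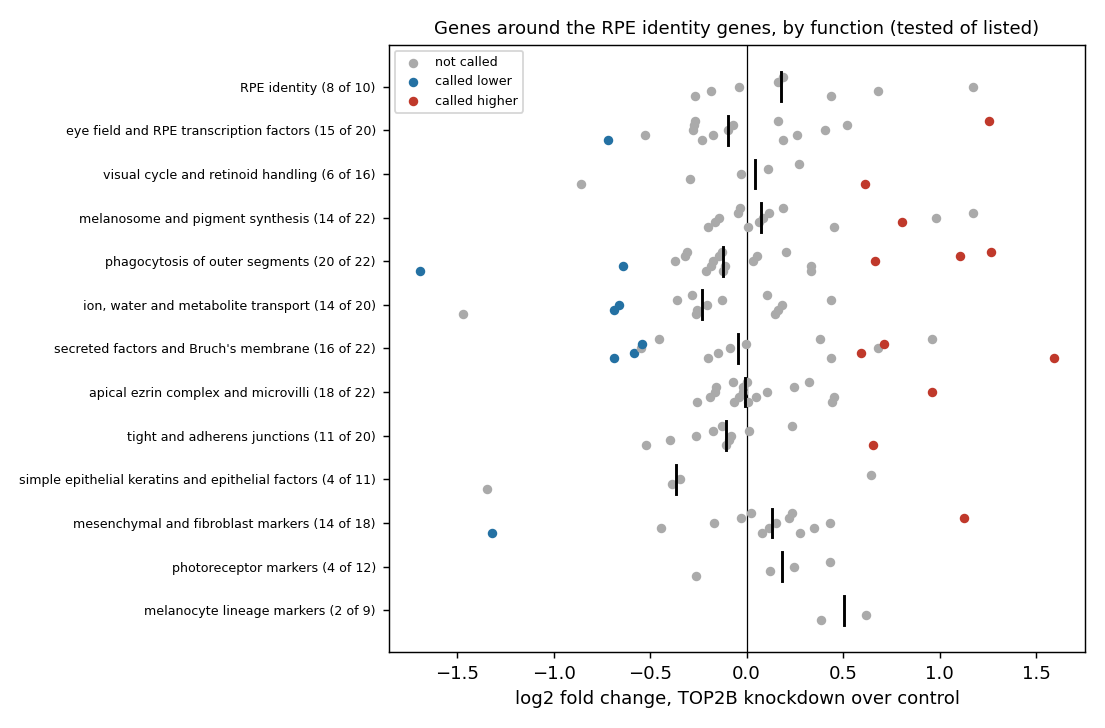
Fitted log2(fold change), TOP2B knockdown over control, of every tested gene in the list of RPE identity genes and in 12 lists around them (points; red called higher, blue called lower, grey not called, at an adjusted p below 0.05 by edgeR), with the list median as a black bar and the number tested of the number listed beside each name. The RPE identity row has no called gene, and AXL, TYRO3 and MFGE8 are the red points of the row on phagocytosis.

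Of 18 mesenchymal and fibroblast markers, 14 were tested, 1 was called higher and 1 lower (6.66% and 4.18% of all tested genes), and the median was 0.13. FN1, the fibronectin gene, rose from 1674 ± 341 to 3656 ± 721 CPM (SD, n = 2), with a log2(fold change) of 1.13 (adjusted p = 0.0103, edgeR; 0.0729 without TOP2B knockdown replicate 1). TAGLN, a smooth muscle gene, fell by 1.32 (adjusted p = 0.0032, edgeR), with 47.8% of its exon bases shared with other genes. VIM had the highest level (190 FPKM). LUM had 0 reads in all libraries, and COL1A2 and DCN had at most 3. The summed level of this list was 3494 to 4054 CPM in the control and 5200 to 6216 CPM in the knockdown libraries, a difference carried by FN1. Without FN1, the other 17 genes summed to 2139 and 2062 CPM in the control and 2050 and 2053 CPM in the knockdown libraries. The part of this list in the values of the RPE identity genes was not tested. Of 12 photoreceptor markers, 4 were tested and 0 were called by edgeR, beside 10.8% of all tested genes. At an unadjusted p below 0.05, edgeR passed 0, beside 26.3% of all tested genes. DESeq2 called 0 at an adjusted p below 0.05, beside 11.8% of all genes with an adjusted p. SAG, GNAT2 and PDE6B had 0 reads in all libraries. The list summed to 10.1 to 11.8 CPM in the control and 12 to 12.4 CPM in the knockdown libraries, and its highest gene, OPN1SW (3.96 FPKM), shares 15.8% of its exon bases with CALU on the opposite strand. Of 9 melanocyte lineage markers, 2 were tested and 0 were called by edgeR, beside the same 10.8%. At an unadjusted p below 0.05, edgeR passed 0, beside the same 26.3%. DESeq2 called 0 at an adjusted p below 0.05, beside the same 11.8%. SOX10, KIT, S100B, TYR and DCT had 0 reads in all libraries. The list summed to 3.77 to 5.05 CPM in the control and 6.28 to 6.30 CPM in the knockdown libraries, and its highest gene was MC1R (0.667 FPKM).

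Finally, the 3′ UTRs of the canonical transcripts were searched for the 6-base word GCAACC, on the transcript strand, a word that had been picked on the same calls in these libraries, so that its shares are a description and no independent evidence. Among genes with an annotated 3′ UTR, 39.1% of the 942 called higher, 19.6% of the 611 called lower and 22.2% of the 10964 without a call held the word. These shares were not adjusted for the length of the 3′ UTR. Of the 10 RPE identity genes, MITF and OTX2 held 3 copies each and the other 8 held 0. The 3′ UTRs of MITF (3084 bases) and OTX2 (1830 bases) were the longest of the 10, and those of the other 8 had 109 to 1166 bases. MITF and OTX2 had log2(fold change) values of 0.19 and 0.16 and were not called, and PAX6, with 0 copies, had -0.27. Of the 12 genes of all lists that were called higher, 4 held the word, TYRO3 with 5 copies and AXL, RAB27A and MARVELD2 with 1 each. Of the 9 called lower, TUB, RUBCN and COL8A1 held 1 copy each. The part of this word in the values was not tested.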

How the data were processed

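RNA-seq gene counts of RPE1 SunTag cells were used, from 2 control libraries and 2 with TOP2B knockdown, grouped by the sample titles. The authors checked single-end 65-bp reads of TruSeq RNA libraries with FastQC 0.11.6, aligned them to GRCh38 with STAR 2.5.4a and took counts while mapping with Gencode v24; the deposited column names instead speak of stranded, paired-end data, and which strand was counted is not given in the sources used here. The deposited values are raw counts per gene. Each column is present a second time with identical values, and these 4 columns were not used.

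A gene was tested if 2 or more libraries had 10 or more counts (15356 of 60725), with edgeR 4.0.16 in R 4.3.3 (TMM, glmQLFit and glmQLFTest, a model with condition alone, Benjamini-Hochberg adjustment over the tested genes). The threshold was an adjusted p below 0.05. No test for this step is named in the study's methods. The fit was tested on simulated data. Log2 CPM used a prior count of 2. The standard error is the log2(fold change) divided by the square root of F. Symbols, positions and exon lengths came from GENCODE v44 on GRCh38, which held 98.9% of the tested identifiers, and promoters from RefSeq (GRCh38.p14). The 10 genes and all lists were chosen with earlier results of these data known. Named were TOP2B, the 10 genes, up to 4 called genes with the largest change per list and the gene of each list with the highest level per length, with exceptions marked. No RPE identity gene was called, so that no gene of similar pattern was sought. Alternatives were DESeq2 1.42.0 (test and size factors), library size alone, other filters, a replicate block, leaving out each library, and another gene length. With 2 replicates per group, p-values measure the spread between these libraries only. Some genes of the lists are not reported here by name.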

Additional observations from a re-analysis of the deposited data

How the results depend on the processing

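Over 35 values from the other scalings, DESeq2 and the other filters on counts, the fold changes of the 8 tested RPE identity genes kept their direction and their side of the threshold in 34. The exception was PMEL with no filter on counts (1.17, adjusted p = 0.0355), which made 1 gene called. DESeq2 gave no adjusted p for BEST1 and PMEL, and the filter at a mean of 100 counts left BEST1, PMEL and SERPINF1 without a value. RLBP1 and RPE65 were at or near zero by all 3 definitions tried, and depth limits BEST1, PMEL and SERPINF1.

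Without one library, the log2(fold change) ran from -0.38 to 0.028 for MERTK and from -0.15 to 0.084 for EZR, with a change of sign (MERTK 0.03 without control replicate 1, EZR 0.08 without control replicate 2 and 0.02 when TOP2B knockdown replicate 1 was left out), from 0.65 to 2.06 for PMEL, 0.38 to 1.08 for SERPINF1, 0.24 to 0.63 for BEST1, 0.16 to 0.23 for MITF, 0.12 to 0.22 for OTX2 and -0.36 to -0.16 for PAX6, and 0 to 1 of these genes were called. In such fits the lone library is assumed to vary like the other group. Over all genes, 708 to 1003 were higher and 452 to 535 lower, against 1023 and 642 with all libraries. By list, the called genes numbered 1 to 1 (transcription factors), 0 to 1 (visual cycle), 1 to 2 (melanosome), 4 to 5 (phagocytosis), 0 to 3 (transport), 3 to 5 (secreted factors), 1 to 2 (ezrin complex), 0 to 1 (junctions), 0 to 2 (simple epithelial) and 1 to 3 (mesenchymal).

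With the replicate number as a block, 3440 genes were higher and 3346 lower, and 4 of 8 RPE identity genes were called: MITF (0.19, adjusted p = 0.0239), PAX6 (-0.26, 0.00414), SERPINF1 (0.68, 0.0403) and PMEL (1.18, 0.0135). The block called 44.2% of all tested genes, and by list 7 of 15 transcription factors, 6 of 14 melanosome, 14 of 20 phagocytosis, 11 of 14 transport, 12 of 16 secreted factor, 8 of 18 ezrin complex, 7 of 11 junction, 4 of 4 simple epithelial and 7 of 14 mesenchymal genes. In the remaining lists it called 1 of 6 visual cycle, 0 of 4 photoreceptor and 0 of 2 melanocyte genes. The differences between replicates 1 and 2 correlated across genes between the groups (Pearson's r = 0.479 over 15356 genes, which are not independent), but with 2 pairs, and replicates that the methods give as independent, they share only a number by the sources.

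Without a filter on counts, 985 genes were lower, and the called genes numbered 3 (melanosome), 10 (secreted factors), 2 (ezrin complex) and 2 (simple epithelial). With a mean of at least 100 counts they were 0 (visual cycle), 1 (transport) and 2 (secreted factors). With DESeq2 they were 1 (transcription factors), 2 (melanosome) and 0 (junctions). At a mean of at least 100 counts, DHRS3 (adjusted p = 0.0531), SLC6A6 (0.061), HTRA1 (0.0744), SPARC (0.056) and COL8A1 (0.0538, edgeR) lost their calls. MARVELD2 lost its call with DESeq2 (adjusted p = 0.0832), and SPARC with library size alone (0.0509, edgeR). The number of genes tested differed between these settings, and the cause of these shifts was not tested. With the length of the longest transcript, the control means were 7.98 FPKM for MITF, 3.84 for OTX2, 9.41 for PAX6, 0.111 for BEST1 and 0.843 for SERPINF1.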
